A study of Mus musculus with 6 samples.

Results

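The genes described here are 35 genes of glutathione metabolism, of the NRF2 pathway and of xenobiotic metabolism, chosen by name from the gene annotation of the array, which lists 36163 genes. All 35 had a probe, 51 probes in all, and the brightest probe stood for each gene. A gene was tested if at least 1 group had its probe well above background on both of its arrays, which 29 of the 35 genes and 24643 genes of the whole array met. The other 6, Gsta4, Gstm6, Gstm7, Gstt1, Gstt2 and Gstt3, met it in no group and have no test.

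Glutathione is a small peptide that cells use to neutralise peroxides and reactive chemicals. Glutathione S-transferases (GSTs) couple it to reactive molecules so that they can be exported, and they come in soluble classes (alpha, mu, pi, theta, omega) and in membrane-bound microsomal forms. NRF2, the transcription factor encoded by Nfe2l2, drives many detoxification genes through a DNA motif called the antioxidant response element, and KEAP1 marks NRF2 for degradation in unstressed cells. In human prostate cancer, the gene of the pi class enzyme is well known for being silenced by promoter methylation.

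N18-Fms cells (labelled N18-CFMS) are a line of mouse prostate cancer cells, a luciferase-expressing, neomycin-selected subclone of the C2H clone, which derives from a TRAMP mouse tumor, that was transduced with murine c-fms, the cDNA of the CSF-1 receptor, by a retrovirus. All arrays are of this 1 transduced subclone, grown with dihydrotestosterone, and the parental cells secrete CSF-1 themselves, so the Control cells are not free of the ligand. Control cells were not stimulated, and the other cells received recombinant murine CSF-1 at 100 ng/mL for 24 h (24H CSF1) or 48 h (48H CSF1), with 2 arrays per group from 2 independent experiments. The times are those of the sample labels; the study's methods text gives shorter ones.

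Each level below is a log2 signal from which the array's own 75th percentile was subtracted, so that 0 is the level of that percentile and 1 unit is a 2-fold step. Levels of different probes cannot be set against each other, because probes differ in their binding. A gene was called when its p-value from limma's moderated test, fitted on all 6 arrays and adjusted over the 24643 genes by Benjamini-Hochberg, was below 0.05. Unless another test is named, adjusted p means this value. Where a gene is said to be at a value with an adjusted p, the value is a log2 fold change, not a level. Between 58.7% and 72% of the spots of an array were well above background, and 0 were saturated. The first 24 h array was alone on its slide, so slide and replicate cannot be told apart for it. The level of Csf1r, the transduced receptor, was 4.88 and 5.13 on the Control arrays, 5.12 and 5.34 at 24 h and 4.96 and 4.90 at 48 h. Of 11 markers of prostate epithelium, 5 were well above background on both Control arrays, whereas Cdh1, Hoxb13 and Foxa1 were among those that were not on any array, and 1, Krt8, was called, higher at 48 h. All 8 fibroblast markers were well above background in Control cells, and 6 of them were called at 24 h, Pdgfra (2.52-fold) and Dcn (4.23-fold) higher and Col1a1, Col1a2, Col3a1 and Pdgfrb lower, by 1.84- to 3.76-fold. At 48 h 1 was called higher and 4 lower, and of all genes tested 14.0% were called at each time. The mean log2 level of these 8 markers was 2.09 and 2.33 in Control cells, 2.0 and 1.99 at 24 h and 2.15 and 2.07 at 48 h. Of 8 macrophage markers, 5 were well above background in Control cells, among them the transduced Csf1r. Adgre1 and Spi1 had no values. At each time 2 were called higher, Cd14 (1.82- and 1.61-fold) and Mrc1 (19.3- and 11.8-fold). Itgam had log2 fold changes of -0.43 and -0.65 and was not called. Its levels were 5.40 and 5.23 in Control cells, 5.06 and 4.70 at 24 h and 4.92 and 4.40 at 48 h. The mean log2 level of the 8, which includes Csf1r, was -1.21 and -1.38 in Control cells, -0.28 and -0.57 at 24 h and -0.88 and -0.98 at 48 h. Lyz2 was not well above background on any array. Of 6 hepatocyte markers, 2 were well above background in Control cells, 0 were called, and Alb and Apoa1 were not well above background on any array. The part of these markers in the results below was not tested.

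The sequences of the probes show how alike the probes of related GST genes are. No probe was set against the transcripts of other genes here. The probe of Gstm3 and the probes of Gstm6 and Gstm7, which are shown because all 3 cover the same stretch of related genes, differ at many bases. The Gstm6 probe shown is 1 of 3 and not the brightest one, which stands for that gene elsewhere. Capitals mark the bases that differ from the Gstm3 probe within the overlap with it. Bases outside it, at the start of the Gstm6 probe and the end of the Gstm7 probe, were not compared and are in lower case. The lines as printed are not aligned. The files place these probes on chromosome 3 of mouse build mm9.
Gstm3: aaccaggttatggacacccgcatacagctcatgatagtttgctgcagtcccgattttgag
Gstm6: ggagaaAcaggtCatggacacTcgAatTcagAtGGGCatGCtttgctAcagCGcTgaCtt
Gstm7: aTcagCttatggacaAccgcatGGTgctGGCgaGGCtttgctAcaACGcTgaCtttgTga

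Over the overlap of these probes, 39 of 56 bases were identical between Gstm3 and Gstm6, and 40 of 59 between Gstm3 and Gstm7. The Gsta1 and Gsta2 probes are a different case, since 46 of the 50 overlapping bases were identical. They are the only pair above 80% identity among 451 pairs of probes of different GST genes. A stretch of 30 bases of that overlap is shown, with capitals where Gsta2 differs from Gsta1, because it bears on how separate the values of these genes are. The files place both on chromosome 9 of mm9.
Gsta1: ctggcctctaatggtttgcaattataaaaa
Gsta2: ctggcctctaatTgtttgcaattataaaaT

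Of the 29 members tested, 10 were called at 24 h, 3 higher and 7 lower than Control. This is 34.5% of the members, and 14.0% of all genes tested were called in that comparison, 8.02% higher and 5.99% lower. The members were chosen with earlier results of these data known, so their share called is not an independent test of the pathways. At 48 h, 6 members were called, 3 higher and 3 lower, which is 20.7% of the members against 14.0% of all genes tested, 6.58% higher and 7.38% lower. In all, 11 members were called at a time, and 5 of them at both times, Mgst1 and Nfe2l2 higher and Cyp1b1, Ces1g and Aoc3 lower. Among all genes, 4.91% were called higher and 4.04% lower at both times. The median log2 fold change of the 29 members was 0.0048 at 24 h and -0.17 at 48 h, and that of all genes tested was 0.04 and -0.04. Both comparisons share the Control arrays. With each array centred on its median, the median of all genes moved to -0.25 at 24 h and to -0.14 at 48 h. The member calls at 24 h became 2 higher and 12 lower. Those of all genes tested went from 1977 higher and 1476 lower to 1197 higher and 3705 lower, so the baseline moved as well. With quantile normalization the member calls at 24 h were 4 higher and 5 lower, and those of all genes 1427 higher and 1432 lower. With normexp background correction the member calls became 7 higher and 10 lower at 24 h, and 3 higher and 6 lower at 48 h. Those of all genes were then 2071 higher and 2340 lower at 24 h, and 1835 higher and 2941 lower at 48 h. Ces1g and Aoc3 passed the filter only through the Control group. Over the 25 members well above background on all 6 arrays, which leaves them out, the calls were 6 higher and 6 lower at 24 h. At 48 h they were 3 higher and 1 lower. The calls of all genes under that filter are not given here.

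**Figure D1:**
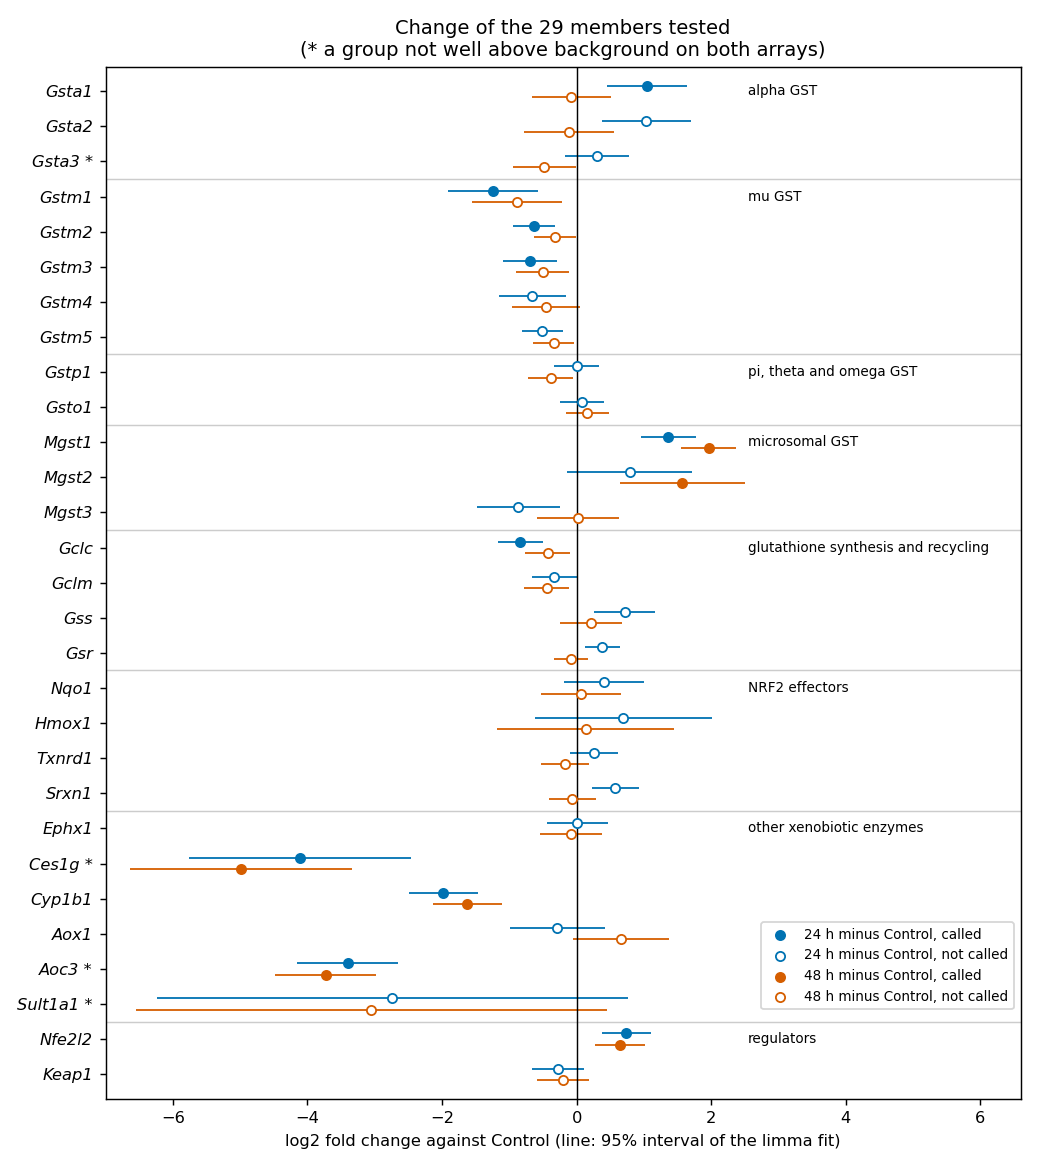
Log2 fold change against Control of each of the 29 members tested, at 24 h (blue) and 48 h (orange), with the 95% interval of the limma fit as a line and filled points for called values; horizontal rules separate the roles. The 5 mu class genes lie below 0 at both times, and Mgst1 lies above 0 at both times. An asterisk marks genes with a group not well above background on both arrays; the points of Ces1g and Aoc3 are fitted from such signals and give no size.

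The regulators come first. Nfe2l2, which encodes NRF2, had levels of 2.56 and 2.86 on the Control arrays, 3.42 and 3.48 at 24 h and 3.27 and 3.43 at 48 h. All 4 stimulated arrays lay above both Control arrays. Nfe2l2 rose by 0.74 ± 0.15 (SE) on the log2 scale at 24 h (1.67-fold, adjusted p = 0.0328) and by 0.64 ± 0.15 at 48 h (1.56-fold, adjusted p = 0.0457). These calls were narrow. Without any 1 of the 6 arrays the adjusted p was between 0.0584 and 0.147 at 24 h and between 0.0881 and 0.181 at 48 h, and with each array centred on its median it was 0.149 and 0.127. Keap1, its inhibitor, had levels of 1.83 and 1.79 in Control cells, 1.65 and 1.43 at 24 h and 1.76 and 1.45 at 48 h. Every stimulated array was below both Control arrays, yet neither the difference at 24 h (-0.27, adjusted p = 0.303) nor that at 48 h (-0.20, adjusted p = 0.442) passed the test. With each array centred on its median, the value of Keap1 at 24 h was -0.55 (adjusted p = 0.0424).

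The 4 members grouped here as effectors of NRF2 did not pass the test at either time. This group holds Nqo1, which reduces quinones, Hmox1, which breaks down heme, Txnrd1, which reduces thioredoxin, and Srxn1, which repairs overoxidised peroxiredoxins. At 24 h, 4 of 4 had a log2 fold change above 0, between 0.26 and 0.70. Txnrd1 was at -0.02 at 24 h when each array was centred on its median. At 48 h, 2 of the 4 were above 0 and 2 below. Of the 29 members tested, 15 were above 0 and 14 below at 24 h, and 9 and 20 at 48 h. The 4 genes of glutathione synthesis and recycling, given next, were split at 24 h, 2 above 0 and 2 below. Srxn1 had levels of 4.49 and 4.52 in Control cells, 4.96 and 5.19 at 24 h and 4.33 and 4.54 at 48 h. The 24 h arrays of Srxn1 stood apart from the Control arrays and the 48 h arrays overlapped them. The log2 fold change of Srxn1 was 0.57 ± 0.14 at 24 h (adjusted p = 0.053) and -0.07 ± 0.14 at 48 h (adjusted p = 0.798). The 24 h value of Srxn1 passed in 5 of the alternatives, with adjusted p between 0.0111 and 0.041. Hmox1 varied most between replicates, with 4.31 and 4.84 in Control cells, 5.00 and 5.55 at 24 h and 3.96 and 5.46 at 48 h. In each of these groups the second replicate was the higher one, also by the other probe of Hmox1, with 0.71 and 2.10 at 48 h. At 48 h the 95% interval of the change of Hmox1 ran from -1.18 to 1.44, so a change of 2-fold either way was not detectable with these arrays.

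Glutathione is made in 2 steps. The first, which limits the rate, is carried out by glutamate-cysteine ligase, of which Gclc encodes the catalytic and Gclm the modifier subunit. Gclc had levels of 2.60 and 2.73 in Control cells, 1.96 and 1.70 at 24 h and 2.23 and 2.24 at 48 h. Both stimulated groups of Gclc were below both Control arrays. Gclc fell by 0.83 on the log2 scale at 24 h (SE 0.13, 1.78-fold, adjusted p = 0.019), and its value at 48 h was -0.43 (adjusted p = 0.0967). The 24 h call was lost without either Control array, the second 24 h array or the first 48 h array, with adjusted p between 0.0675 and 0.113. Gclm was at -0.33 at 24 h (adjusted p = 0.163) and -0.44 at 48 h (adjusted p = 0.0865). Gss, the enzyme of the second step, was at 0.71 at 24 h (adjusted p = 0.0588) and at 0.22 at 48 h. Gsr, which regenerates reduced glutathione, was at 5.01 and 5.05 in Control cells, 5.42 and 5.40 at 24 h and 4.97 and 4.92 at 48 h. The replicate arrays of Gsr lay close together, and its log2 fold change was 0.38 ± 0.10 at 24 h (adjusted p = 0.0665) and -0.08 at 48 h (adjusted p = 0.655). The second probe of Gsr gave 0.38 and -0.08.

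All 5 mu class GSTs that were tested, which conjugate a broad range of electrophiles, had a log2 fold change below 0 at both times. These are values of the brightest probes, and both times share the Control arrays. Of the 29 members tested, 14 were below 0 at 24 h and 20 at 48 h. By limma's adjusted p, 3 were called at 24 h and 0 at 48 h. Of all genes tested, 5.99% were called lower at 24 h and 7.38% at 48 h. Here and elsewhere, groups that lay apart are given without the share of all genes that did so, which was not counted. At 48 h the unadjusted 95% intervals of Gstm1, Gstm2, Gstm3 and Gstm5 lay below 0. The direction was the same in 5 of 5 under quantile normalization, median centring, normexp and the authors' log2 values. With no filter on dim probes, which adds Gstm6 and Gstm7, 6 of 7 lay below 0 at 24 h and 0 were called. With the mean of a gene's probes, 2 were called at 24 h and 0 at 48 h. The calls were 5 at 24 h and 2 at 48 h under median centring, under normexp, with the replicate number as a block and with an intensity trend, but 1 and 0 under quantile normalization, and 0 or 1 at 24 h with 1 array left out. Gstm1 had levels of 2.48 and 2.41 in Control cells, 1.55 and 0.86 at 24 h and 1.78 and 1.35 at 48 h. Gstm1 fell by 1.24 on the log2 scale at 24 h (SE 0.27, 2.36-fold, adjusted p = 0.0401), and its value at 48 h was -0.88 (adjusted p = 0.0895). The files place the brightest Gstm1 probe at chr5:117082490-117082549 of mm9 and the other Gstm1 probe at chr3:107815595-107815654, beside the other mu genes. That other probe gave -1.29 at 24 h and -0.85 at 48 h.

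Gstm2 had levels of 4.99 and 4.92 in Control cells, 4.41 and 4.25 at 24 h and 4.72 and 4.55 at 48 h. Gstm2 fell by 0.63 on the log2 scale at 24 h (SE 0.12, adjusted p = 0.033), and its 2 other probes gave -0.62 and -0.71. At 48 h Gstm2 was at -0.32 (adjusted p = 0.151), with all stimulated arrays again below Control. Gstm3 had levels of 0.23 and 0.12 in Control cells, -0.36 and -0.68 at 24 h and -0.23 and -0.44 at 48 h. By the probe shown above, Gstm3 fell by 0.69 on the log2 scale at 24 h (SE 0.16, adjusted p = 0.0457). The other Gstm3 probe, with a weaker signal, went the opposite way, 0.56 at 24 h (adjusted p = 0.11 over all probes) and 0.07 at 48 h, and the mean of both probes was -0.07 at 24 h (adjusted p = 0.784). The call of Gstm3 therefore holds for 1 of its 2 probes. Gstm4 was at -0.66 at 24 h (adjusted p = 0.0893) and Gstm5 at -0.51 (adjusted p = 0.0516); at 48 h they were at -0.46 and -0.34. When arrays were left out in turn, the calls of Gstm2 and Gstm3 were lost without any 1 of the 6 arrays (adjusted p up to 0.151 and 0.173) and that of Gstm1 without any but the first 24 h array (up to 0.168). Gstm6 and Gstm7 were near background throughout, and Gstm7 was well above it only on the first 24 h array.

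**Figure D2:**
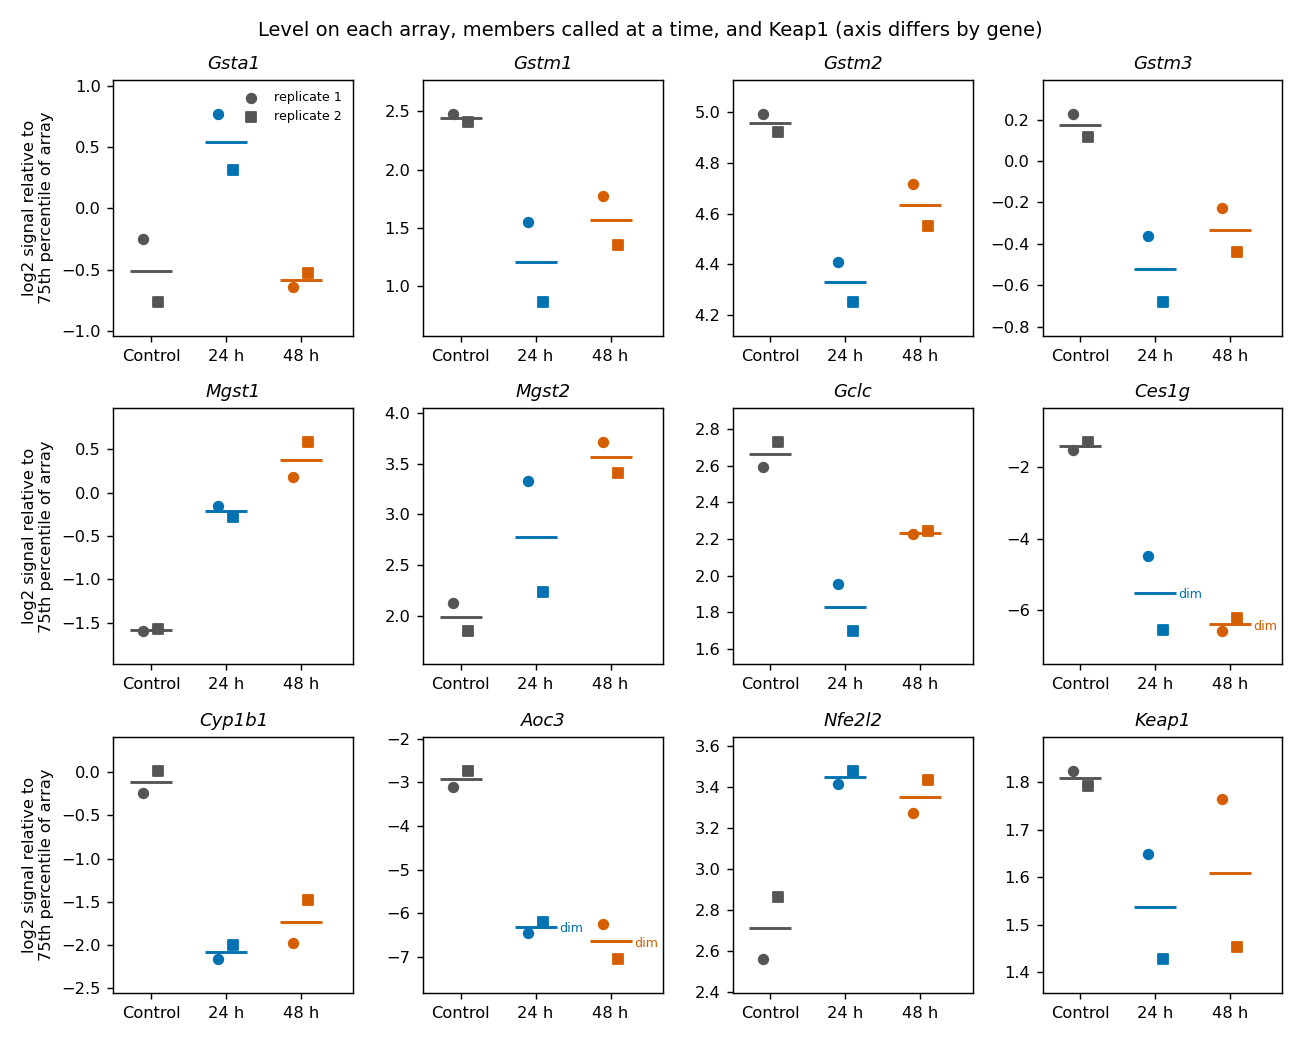
Level of the 11 members called at a time, and of Keap1, on each array (circles replicate 1, squares replicate 2, bars the group mean), as log2 signal relative to the 75th percentile of the array; "dim" marks groups not well above background on both arrays, and each panel has its own axis. Gsta1 is high at 24 h only, Mgst1 is higher at 48 h than at 24 h, and the mu class genes and Gclc are lowest at 24 h.

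Alpha GSTs conjugate many drugs and reduce lipid peroxides. Of the 3 that were tested, 1 was called, Gsta1 at 24 h. Gsta1 had levels of -0.25 and -0.76 in Control cells, 0.77 and 0.31 at 24 h and -0.64 and -0.53 at 48 h. The 24 h arrays were above all others, and the 48 h arrays lay within the range of the Control arrays. Gsta1 rose by 1.05 ± 0.23 on the log2 scale at 24 h (2.07-fold, adjusted p = 0.0439), and its value at 48 h was -0.08 (adjusted p = 0.867). Gsta2 was at 1.04 ± 0.27 at 24 h (adjusted p = 0.0598) and -0.11 at 48 h. Its probe shares most of its bases with that of Gsta1, as shown above, so the values of the 2 genes may not be separate. Both genes are nevertheless counted in the totals given here. Without any 1 of the arrays the adjusted p of Gsta1 at 24 h was between 0.0687 and 0.178; without the array on the separate slide its log2 fold change was 0.82 (adjusted p = 0.163). Gsta3 had a log2 fold change of 0.30 at 24 h and -0.48 at 48 h, and neither passed the test. At 48 h its probe was well above background on 1 of the 2 arrays. Under quantile normalization its 24 h value was -0.02. Gsta4 was well above background only on the first 24 h array.

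Of the microsomal GSTs, Mgst1, a membrane-bound transferase and peroxidase, was the only member called higher at a time in every alternative. Mgst1 had levels of -1.59 and -1.57 in Control cells, -0.15 and -0.28 at 24 h and 0.18 and 0.58 at 48 h. The 3 groups did not overlap, and the order was Control, 24 h, 48 h. Mgst1 rose by 1.37 ± 0.16 at 24 h (2.58-fold, adjusted p = 0.00934) and by 1.96 ± 0.16 at 48 h (3.90-fold, adjusted p = 0.00352) on the log2 scale. The second Mgst1 probe gave 1.45 and 2.06. At 48 h the adjusted p stayed below 0.05 in all 15 alternatives, with a highest value of 0.0406, whereas at 24 h it was between 0.0551 and 0.0708 without any 1 of the Control and 24 h arrays. Mgst2, which can make leukotriene C4, had levels of 2.13 and 1.86 in Control cells, 3.33 and 2.23 at 24 h and 3.71 and 3.41 at 48 h. The 24 h arrays of Mgst2 were far apart, and the first one was that on the separate slide. Mgst2 rose by 1.57 ± 0.37 on the log2 scale at 48 h (2.97-fold, adjusted p = 0.0495), a call lost without any 1 of the Control and 48 h arrays (adjusted p between 0.137 and 0.222); at 24 h it was at 0.79 (adjusted p = 0.222). Mgst3 was at -0.87 at 24 h (adjusted p = 0.075) and at 0.02 at 48 h, by its second probe at -1.03 and 0.04.

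Gstp1, of the pi class, and Gsto1, of the omega class, were not called at either time. Gstp1 had levels of 4.47 and 4.34 in Control cells, 4.54 and 4.28 at 24 h and 4.01 and 4.02 at 48 h. The 24 h arrays of Gstp1 overlapped the Control arrays and the 48 h arrays were below them, with a difference of -0.39 (95% interval -0.72 to -0.05, adjusted p = 0.12). The second Gstp1 probe gave -0.40 at 48 h. Gsto1 was well above background everywhere, and its 95% interval ran from -0.24 to 0.40 at 24 h and from -0.16 to 0.48 at 48 h. Among the members of the theta class, Gstt1 and Gstt3 were each well above background on 1 array, and Gstt2 on 0; Gstt4, of the wider list, is given further on.

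Of the 6 other xenobiotic enzymes, 3 were called lower at both times. Ces1g, a carboxylesterase that hydrolyses esters of drugs and lipids, had levels of -1.52 and -1.30 in Control cells, -4.48 and -6.57 at 24 h and -6.57 and -6.23 at 48 h. It was well above background on both Control arrays and on 0 of the 4 stimulated arrays. After 24 h, Ces1g was therefore at least 7.78-fold lower (adjusted p = 0.0189), and after 48 h at least 9.59-fold lower (adjusted p = 0.0121). Such a bound sets the brighter group against the higher of 2 signals on each dim array, the one measured for the probe and the weakest one on that array that was well above background. The adjusted p beside a bound belongs to the fitted signals, which on the dim arrays were not above background, and both Ces1g and Aoc3 were tested only because the Control arrays were above it. Aoc3, an amine oxidase of the cell surface, showed the same pattern, with -3.11 and -2.73 in Control cells, -6.44 and -6.19 at 24 h and -6.24 and -7.05 at 48 h. After 24 h, Aoc3 was at least 2.73-fold lower (adjusted p = 0.0045), and after 48 h at least 3.37-fold lower (adjusted p = 0.00324). The call of Aoc3 at 48 h held in the 14 alternatives that tested it, among them the one with no filter, while the filter on all 6 arrays leaves the gene out; the one at 24 h was lost without the second 24 h array (adjusted p = 0.0513), and those of Ces1g without either Control array or the first 48 h array (and, at 48 h, the second), with adjusted p between 0.0573 and 0.119. With no filter on dim probes both calls of Ces1g were lost as well (adjusted p = 0.0597 at 24 h and 0.0503 at 48 h). All these refits read the same dim signals of the stimulated arrays, so a call that held, as for Aoc3, is no added support.

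Cyp1b1, a cytochrome P450 that oxidises polycyclic aromatic compounds and estradiol and is a known target of the aryl hydrocarbon receptor, stayed measurable in every group. Its levels were -0.24 and 0.02 in Control cells, -2.17 and -2.01 at 24 h and -1.98 and -1.48 at 48 h. All stimulated arrays were more than 1 log2 unit below both Control arrays. Cyp1b1 fell by 1.98 at 24 h (SE 0.20, 3.94-fold, adjusted p = 0.00657) and by 1.62 at 48 h (SE 0.20, 3.08-fold, adjusted p = 0.0106) on the log2 scale. The call was lost at 24 h without the second Control or the second 24 h array and at 48 h without either Control array, the second 24 h array or the first 48 h array, with adjusted p between 0.0528 and 0.0782. Aox1, aldehyde oxidase, had a log2 fold change of -0.28 at 24 h and of 0.66 at 48 h, and neither passed the test.

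Sult1a1, which sulfates phenols, had log2 fold changes that rested on 1 array, -2.74 at 24 h (adjusted p = 0.255) and -3.05 at 48 h (adjusted p = 0.212). Its level was -3.86 on the first Control array and 0.52 on the second, against -3.91 and -4.90 at 24 h and -5.10 and -4.34 at 48 h. The other Sult1a1 probe was at -4.39 and -4.27 on the Control arrays. Only the second Control array with the brightest probe stood apart.

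The 2 probes of Ephx1, the microsomal epoxide hydrolase that opens reactive epoxides, gave different answers. Both carry the same transcript accession in the files. The brighter one lies at chr1:182924124-182924183 and the other at chr1:182919689-182919748 of mm9, with starts 4435 bases apart, and the first 30 bases of each are shown because the finding depends on which is read.
Ephx1 brighter probe: tttcaagaaacatttattccctgacccctc
Ephx1 other probe: tcgccccactgcatagctgtgttaagctac

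By the brighter probe, Ephx1 was at 4.44 and 4.06 in Control cells, 4.38 and 4.14 at 24 h and 4.28 and 4.06 at 48 h. The groups overlapped, and the log2 fold change was 0.01 (95% interval -0.45 to 0.47) at 24 h and -0.08 (-0.54 to 0.38) at 48 h. By the other probe, Ephx1 was at 2.42 and 2.59 in Control cells, 0.34 and 0.16 at 24 h and 0.68 and 0.64 at 48 h. All stimulated arrays of that probe were far below both Control arrays, by 2.26 at 24 h (log2 fold change -2.26, SE 0.13, adjusted p = 0.00226 over all probes) and by 1.84 at 48 h (log2 fold change -1.84, adjusted p = 0.00272). Which part of the transcript each probe reads was not analysed here.

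**Figure D3:**
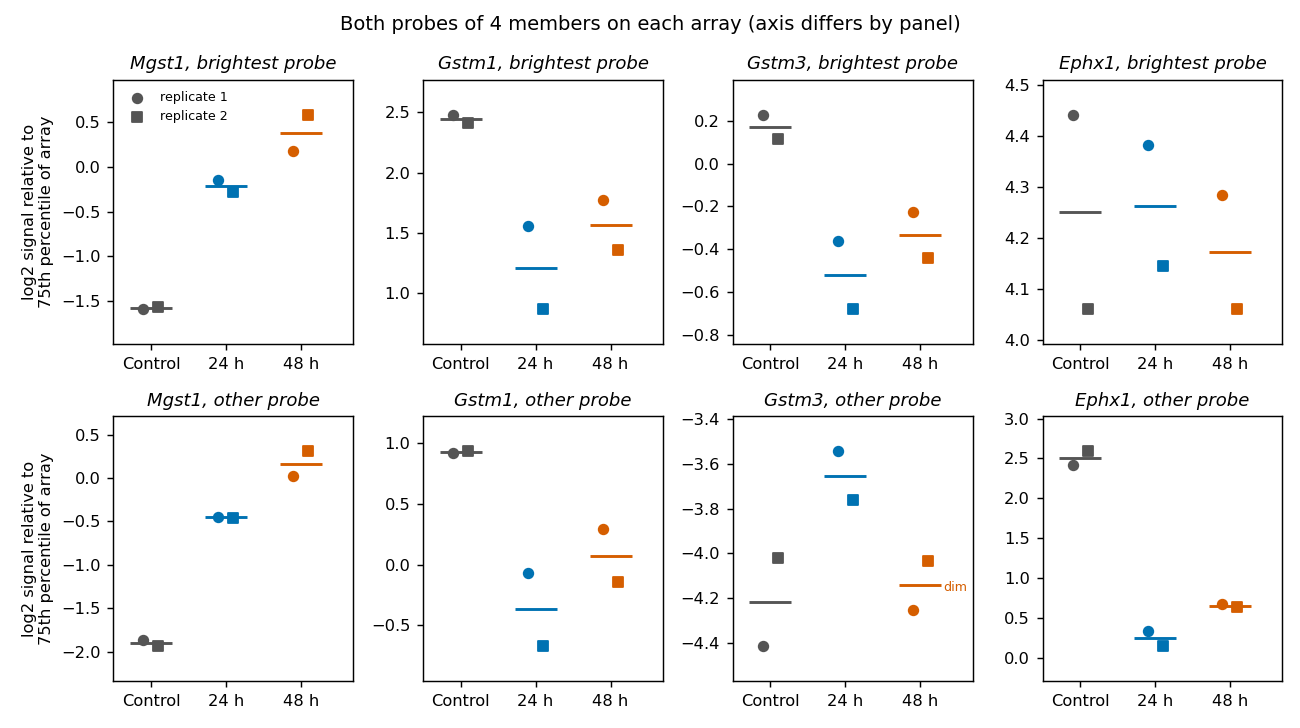
Level of both probes of Mgst1, Gstm1, Gstm3 and Ephx1 on each array (circles replicate 1, squares replicate 2, bars the group mean), as log2 signal relative to the 75th percentile of the array, with the brightest probe above and the other below; each panel has its own axis. The probes of Mgst1 and of Gstm1 move alike, the dim second probe of Gstm3 goes up at 24 h where the first goes down, and only the second probe of Ephx1 is lower on the stimulated arrays.

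The times were also compared directly. By limma's adjusted p, 0 of the 29 members were called between 48 h and 24 h, as were 0.00% of all genes tested; at an unadjusted p under 0.05, 12 of the 29 members passed, against 13.6% of all genes. The members with the smallest p-values were Gsta1 (-1.13, adjusted p = 0.168), Srxn1 (-0.64, adjusted p = 0.178) and Gsr (-0.46, adjusted p = 0.179). These values are log2 differences of 48 h minus 24 h, and none passed the adjusted test. The other values below 0 with an unadjusted p under 0.05 were those of Gsta2 (-1.15), Gsta3 (-0.78), Txnrd1 (-0.43), Gss (-0.50) and Gstp1 (-0.39), with adjusted p between 0.191 and 0.329. The values above 0 were those of Mgst1 (0.60), Mgst3 (0.89), Aox1 (0.95) and Gclc (0.41), with adjusted p between 0.234 and 0.288. In each of these genes the 2 arrays at 48 h did not overlap those at 24 h. The genes were picked by their p-value in this comparison, so this separation is no added support.

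Promoter sequences of 29 of the 35 genes were available from RefSeq (build GRCm38.p6), from 250 bases before to 50 bases after the start site. The core of the antioxidant response element, TGACNNNGC on either strand, was found in 8 of the 29, Gclm, Gsta3, Gstm5, Gstm7, Mgst1, Nfe2l2, Srxn1 and Txnrd1, and in 14.0% of the 27025 genes with a promoter in that table. It was found for 2 of 4 genes called higher at a time, 0 of 5 called lower and 5 of 16 that were tested and not called. The core of the aryl hydrocarbon response element, GCGTG on either strand, was found in 13 of the 29 and in 35.2% of all genes, for 1 of 4 genes called higher, 2 of 5 called lower and 10 of 16 not called. The windows of the genes called higher at both times, and of Cyp1b1, are shown with the match in capitals, 60 bases on the strand of the gene. A match is a string of letters and not evidence of binding. A gene without a match may have one outside this window, which was not searched.
Mgst1, chr6:138140446-138140505, plus strand: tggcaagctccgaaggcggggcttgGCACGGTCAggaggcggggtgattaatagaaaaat
Nfe2l2, chr2:75704854-75704913, minus strand: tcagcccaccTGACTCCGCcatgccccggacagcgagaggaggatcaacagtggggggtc
Cyp1b1, chr17:79715103-79715162, minus strand: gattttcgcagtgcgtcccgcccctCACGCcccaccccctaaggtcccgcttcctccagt

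The match begins at position -56 from the start site in Mgst1, -240 in Nfe2l2 and -76 in Cyp1b1. Mgst1 and Nfe2l2, shown with the antioxidant core, were called higher, and Cyp1b1, shown with the aryl hydrocarbon core, was called lower.

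A wider list of other genes of these pathways was read in the same fit. It held 116 names, of which 114 were on the array and 91 were tested. At 24 h, 27 were called, 17 higher and 10 lower (29.7% of those tested), and at 48 h 29 were called, 18 higher and 11 lower (31.9%). Of all genes tested, 14.0% were called at each time, 8.02% higher and 5.99% lower at 24 h and 6.58% higher and 7.38% lower at 48 h. The wider list, too, was chosen with earlier results of these data known, so these shares are no independent test. Over the 91 genes, the median was 0.10 at 24 h and 0.09 at 48 h on the log2 scale. With each array centred on its median the split at 24 h turned to 11 higher and 19 lower, and without the second 24 h array 4 were called. Under median centring, the calls of all genes tested at 24 h were 1197 higher and 3705 lower. At both times, 14 genes of the wider list were called higher and 7 lower, against 4.91% and 4.04% of all genes tested.

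Among the genes called higher at both times, the 4 with the largest fitted mean increase were Ggct, Gstt4, Akr1c18 and Gsto2. The place of Gstt4 rests on a fitted value against Control arrays that were not well above background. Ggct, a gamma-glutamylcyclotransferase, which cleaves gamma-glutamyl amino acids formed from glutathione, had levels of -0.06 and 0.22 in Control cells, 4.05 and 4.29 at 24 h and 4.25 and 4.51 at 48 h. It was 17.0-fold higher at 24 h (adjusted p = 0.00134) and 19.7-fold higher at 48 h (adjusted p = 9.3e-04). Gsto2, the other omega GST, was 5.12-fold (adjusted p = 0.0192) and 4.84-fold higher (adjusted p = 0.0217), whereas the intervals of Gsto1 included 0. Gstt4, a theta class gene, was well above background on 0 of the 2 Control arrays, on both 24 h arrays and on 1 array at 48 h, and was at least 4.55-fold higher at 24 h (adjusted p = 9.9e-04) and at least 1.57-fold higher at 48 h (adjusted p = 0.00151). Gstt4 was tested only because the 24 h arrays were above background, and its adjusted p belongs to the fitted signals. The next gene, Abcb1a, an efflux pump of drugs, was measured in every group and was 4.14-fold higher at 24 h (adjusted p = 0.00657) and 4.08-fold higher at 48 h (adjusted p = 0.00632). Akr1c18, which inactivates progesterone, was 4.80-fold higher at 24 h (adjusted p = 0.00308) and 14.5-fold higher at 48 h (adjusted p = 0.00102).

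The 4 genes with the largest mean decrease among those called lower at both times were Maoa, Abcg2, Cbr3 and Gstz1. Maoa, which oxidises monoamines, had a log2 fold change of -1.47 at 24 h and -1.25 at 48 h. Abcg2, an efflux transporter of drugs, was at -1.02 and -1.18, the carbonyl reductase Cbr3 at -0.94 and -1.25, and the zeta class GST Gstz1 at -0.82 and -0.83. All 4 had adjusted p between 0.00459 and 0.0386. Larger fitted decreases were called at 48 h alone. The carbonyl reductase Cbr2 was at -0.84 at 24 h (adjusted p = 0.0773) and at -3.10 at 48 h (8.56-fold lower, adjusted p = 0.00299). The carboxylesterase Ces2g was at -0.74 at 24 h (adjusted p = 0.409) and at a fitted -2.29 at 48 h (adjusted p = 0.0477). At 48 h Ces2g was well above background on 1 of the 2 arrays, so it was at least 2.49-fold lower. Abcb1a, Cbr2 and Ces2g, and the regulators Bach1 and Ahr, were chosen after their values were seen. Bach1, a repressor that competes with NRF2 at its DNA motif, rose by 0.97 on the log2 scale at 24 h (adjusted p = 0.00765) and by 0.72 at 48 h (adjusted p = 0.0164). Ahr, the aryl hydrocarbon receptor, rose by 1.18 at 24 h (adjusted p = 0.0321), where Cyp1b1 fell, and was at 0.52 at 48 h (adjusted p = 0.2).

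**Figure D4:**
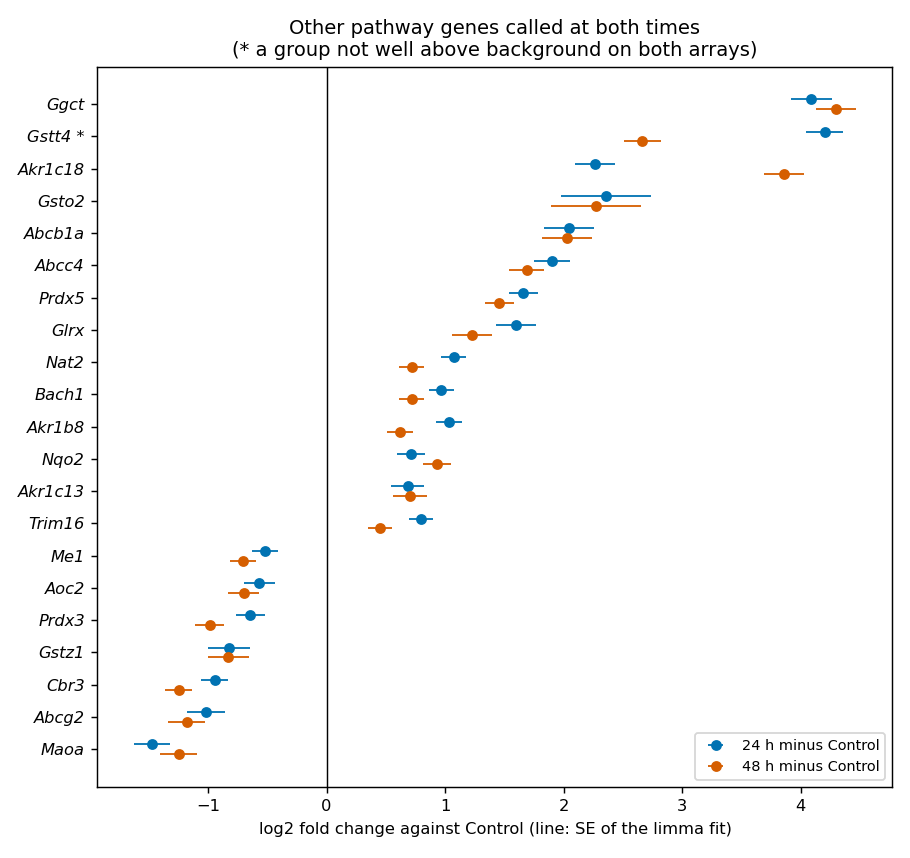
Log2 fold change against Control at 24 h (blue) and 48 h (orange), with the SE of the limma fit as a line, of the 21 other pathway genes called at both times; the asterisk marks Gstt4, which was not well above background in Control cells and whose points give no size. Of these, 14 lie above 0 and 7 below, and Ggct lies above 4 at both times.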

How the data were processed

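RNA of N18-Fms cells was hybridised to 6 single-color (Cy3) Agilent mouse arrays. Per the labels, Feature Extraction 11.0.1 was the authors' software for reading the spots; the processed signal they deposited is a linear, background-subtracted and detrended intensity, not normalized between arrays, with mean and background intensity and flags. The authors also deposited log2 values for 44569 probes, whose normalization is not given in the sources used here; apart from a constant per array and a baseline per probe, 99.81% of their differences lay within 0.05 of those of the signals over 44323 probes.

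Here, outlier spots were left out (303 probes and the only probes of 135 genes lost), spots of a probe averaged, and log2 taken minus the array's 75th percentile, with a pseudocount of 0. Groups were compared with limma 3.58.1 in R 4.3.3 (files read with data.table, version 1.17.8), 2-sided, in a fit with 3 residual degrees of freedom and 2.39 from the prior; an exact test of 2 arrays against 2 cannot go below p = 0.333. Replicates correlated at 0.993 to 0.994 (Pearson, across genes), and none were identical. The number of arrays limits the precision. The code of the fit was checked on simulated data with the same spread for every gene, which does not show how the test behaves on these arrays. Sequences were read with Python 3.11.15 and pandas 2.3.3, and figures drawn with matplotlib 3.10.9. The files' coordinates are of mm9; no transcript models of that build were used here.

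The members and the wider list were chosen with earlier results of these data known. Values on every array are given for members called at either time and for Nfe2l2 and Keap1; of the wider list, the genes called at both times with the 4 largest mean increases and the 4 largest mean decreases are named. Alternatives were quantile normalization, median centring, normexp with an offset of 50, the authors' log2 values, no filter or a filter on all 6 arrays, averaging the probes of a gene, the replicate number as a block, an intensity trend in the prior spread, each array left out in turn, and the thresholds of the study's legend (unadjusted p under 0.05 and 2-fold). Reading each probe on its own was added after seeing the data.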

Additional observations from a re-analysis of the deposited data

How the results depend on the processing

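The 10 members called at 24 h became 17 with normexp, 17 with an intensity trend in the prior spread and 3 without the filter on dim probes. With normexp, the calls of all genes tested at 24 h went from 3453 to 4411. The 6 members called at 48 h became 11 with the trend and 3 without the filter. With 1 array left out in turn, between 1 and 5 members were called at 24 h and between 2 and 5 at 48 h. For 48 h against 24 h the count stayed 0 in every alternative except the study's thresholds, which called 2, both lower. The wider list went from 27 to 15 without the filter and 16 with the study's thresholds at 24 h, and from 29 to 9 without the filter, 44 with the trend and 16 with the study's thresholds at 48 h; with 1 array left out it was between 4 and 19, and between 7 and 20.

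Every value called for a member kept its direction in all alternatives except the other probe of Gstm3 at 24 h (0.56). Of 96 refits with 1 array left out, 35 kept the call and 61 lost it; of 140 other settings, 123 kept it and 17 lost it. Signs turned elsewhere only for values that did not pass. Under median centring these were, at 24 h, Gstp1 (-0.28), Gsto1 (-0.21), Txnrd1 (-0.022) and Ephx1 (-0.27), and at 48 h Mgst3 (-0.080) and Nqo1 (-0.035). Under quantile normalization it was Gsta3 at 24 h (-0.021), under normexp Gstp1 (-0.018) and Ephx1 (-0.027) at 24 h, with the mean of probes Gstp1 (-0.0050) and Ephx1 (-1.12, adjusted p = 0.00823) at 24 h, and by the other probe Gstp1 (-0.015) and Ephx1 (-2.26) at 24 h and Gstm3 (0.074) at 48 h. With 1 array left out, the values that turned had these lowest and highest values: at 48 h Gsta1 -0.33 and 0.18, Gsta2 -0.34 and 0.13, Srxn1 -0.17 and 0.040, Mgst3 -0.12 and 0.16, Nqo1 -0.084 and 0.21, Hmox1 -0.62 and 0.88, and Ephx1 -0.27 and 0.11, and at 24 h Gstp1 -0.12 and 0.13, Gsto1 -0.023 and 0.18, and Ephx1 -0.18 and 0.20. The cause was not tested.

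The replicate numbers were not taken to pair the arrays, since the labels do not say so and the deviations of same-numbered arrays correlated at 0.13, 0.09 and 0.20. With the replicate number as a block, 14 members were called at 24 h, 8 at 48 h and 0 between the times, and 31 and 32 of the wider list.

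Low signal limits Ces1g, Aoc3 and Gstt4 to bounds, and Ces2g at 48 h, and leaves 6 members without a test. Gsta3 at 48 h and Sult1a1 at both times were well above background on 1 array of the group. With 2 arrays a group, a call missed here does not show that a gene did not change.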

Other observations

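Among the 18 members tested and called at neither time, 5 lay just above the threshold at 24 h, namely Gstm5 (adjusted p = 0.0516 by limma), Srxn1 (0.053), Gss (0.0588), Gsta2 (0.0598) and Gsr (0.0665).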
